A study of Mus musculus with 4 samples.

Results

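The 8 genes described here carry protons and bicarbonate across membranes of the kidney tubule or interconvert carbon dioxide and bicarbonate. They were chosen by name: the sodium-proton exchangers Slc9a3 and Slc9a8, the bicarbonate carriers Slc4a2 and Slc4a4, and the carbonic anhydrases Car2, Car4, Car12 and Car14. All 8 were among the 23852 gene names in the deposited tables, and 7 of them passed the filter on low values and were among the 13287 genes tested. RNA was sequenced from whole E18.5 mouse kidneys, from embryos of mixed strain. The mutant group held 2 libraries from embryos with both Hnf4a alleles conditional (Hnf4a c/c ; Six2GFPcre), and the control group held 2 libraries from embryos with 1 conditional allele (Hnf4a c/+ ; Six2GFPcre). Hnf4a encodes a transcription factor of the nuclear receptor family, found in proximal tubule cells. Six2GFPcre, present in both groups, drives Cre in the progenitors of the nephron epithelium, so control embryos could lose 1 copy of Hnf4a in those cells and are no intact wild type. Collecting duct, stroma and blood vessels arise mainly outside this lineage.

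The proximal tubule reclaims most of the bicarbonate that the glomerulus filters. Slc9a3 (NHE3) secretes protons into the lumen in exchange for sodium, luminal carbonic anhydrase turns the carbonic acid formed there into carbon dioxide and water, and cytosolic carbonic anhydrase makes bicarbonate again inside the cell. Slc4a4 (NBCe1) then carries this bicarbonate with sodium across the basolateral membrane, and inherited loss of it in humans causes proximal renal tubular acidosis. Further along the nephron, intercalated cells of the collecting duct secrete acid or base with proton pumps, anion exchangers and cytosolic carbonic anhydrase.

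Levels are FPKM, that is, fragment counts that the authors' software divided by transcript length and by library size. Between 13085 and 13183 of the genes joined across tables reached an FPKM of 1 per library, and absolute depth is unknown. Hnf4a itself was at 87.1 and 78.5 FPKM in mutant libraries, against 89.3 and 84.6 FPKM in control libraries, with a log2 change of -0.07 (SE 0.08) and a limma adjusted p of 0.83. The sources used here do not say which exons Cre removes, so this whole-gene value is no check of the genotype labels. Ddx3y, a Y-linked gene, was expressed in replicate 1 of each group (26.4 FPKM in the mutant and 27.7 in the control library) and Xist in replicate 2 (74.0 FPKM in the mutant and 81.0 in the control library), so each group held 1 library of either kind. Ddx3y was at 0.0265 FPKM in the mutant and 0.0301 in the control library of replicate 2. By these transcripts the libraries of a group were not repeats of the same animal's RNA. No label says which animals, or how many, each library came from. The p-values below cover the spread between libraries, part of which may be technical.

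In all, 3 of the 8 genes had lower values in both mutant libraries than in either control library: the basolateral bicarbonate carrier Slc4a4, at 53.2% of the control mean, and the membrane-bound carbonic anhydrases Car12, at 68.6%, and Car4, at 75.6%. The other 5 genes did not share this pattern. Slc4a2 and Slc9a8 had overlapping groups, Slc9a3 and Car2 had higher values in both mutant libraries than in either control library, and Car14 was listed at 0 throughout. With limma on log2(FPKM + 1) and Benjamini-Hochberg adjustment over all genes tested, 0 of the 7 tested genes passed an adjusted p under 0.05, against a background of 0.158% of all tested genes (21 genes, 15 lower and 6 higher in mutant kidneys). At an unadjusted p under 0.05, 3 of the 7 were lower (background 4.57% of tested genes) and 0 were higher (background 2.67%). With mutant replicate 1 left out, Slc4a4 and Car4 had unadjusted p-values of 0.065 and 0.0503, and with mutant replicate 2 left out Slc4a4 had 0.062. Groups did not overlap in the lower direction for 3 of the 7 (background 17.1%) and in the higher direction for 2 of the 7 (background 22.7%). All 7 were at 1 FPKM or more in all 4 libraries, so none entered the test through 1 group alone. In bulk tissue such as this, fewer cells of a type and less RNA per cell cannot be told apart.

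**Figure D1:**
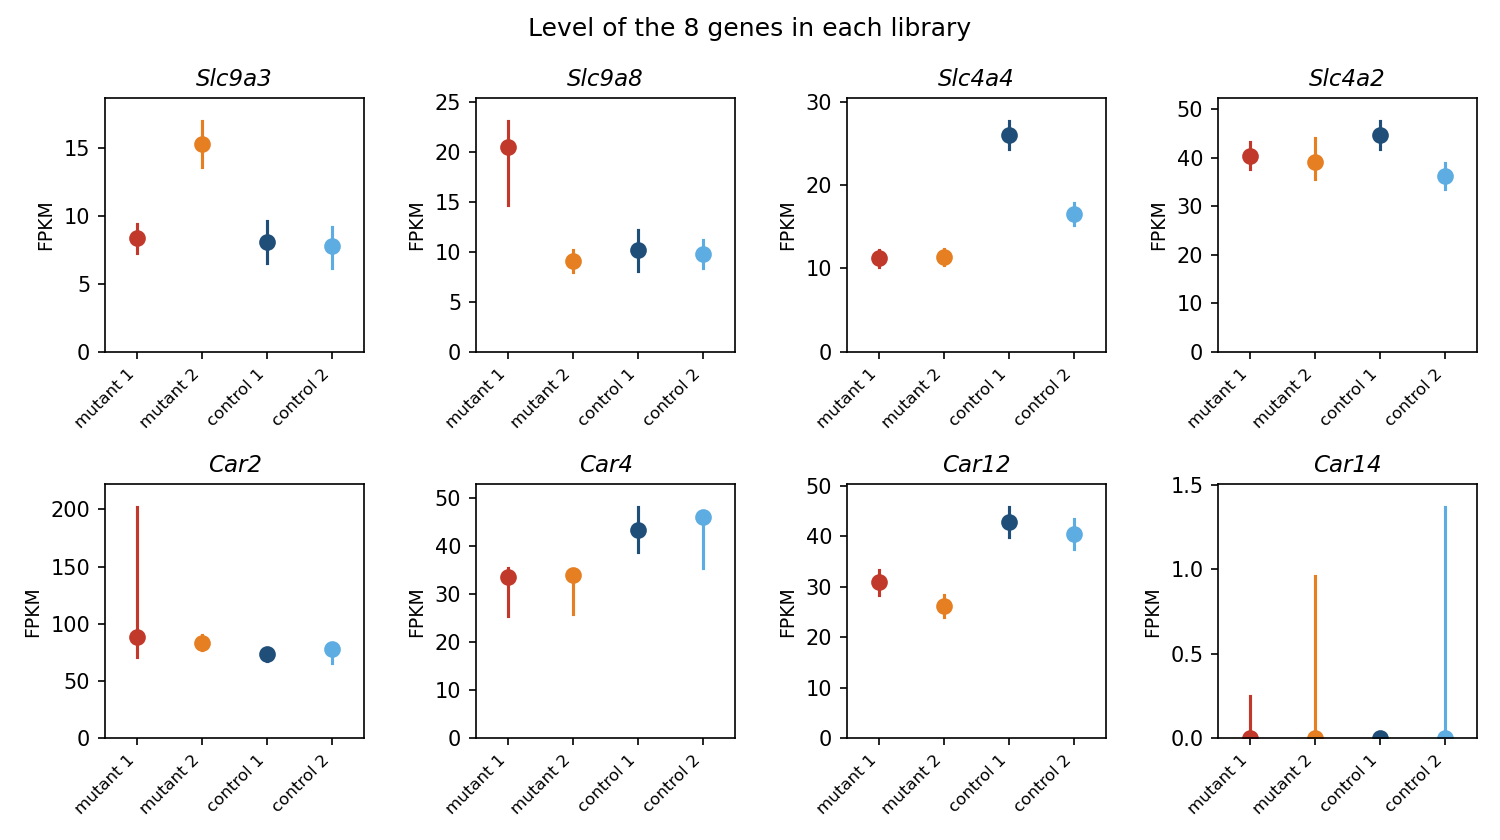
FPKM (vertical axis, linear from 0, its own scale in each panel) of the 8 genes in mutant libraries 1 and 2 and control libraries 1 and 2. Points are deposited FPKM values and vertical lines the interval deposited with each. Slc4a4, Car4 and Car12 sit lower in both mutant libraries, Slc9a3 is high in mutant replicate 2 and Slc9a8 in mutant replicate 1, and Car14 is listed at 0.

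The start regions of the 3 genes with lower values in both mutant libraries are shown because these genes were lower together, and those of Slc4a4 because its windows differ in kind. Each window runs from 250 bases before to 50 bases after an annotated start, 5′ to 3′ on the gene's strand, from RefSeq on GRCm38.p6, a different build from the mm9 of the deposited tables. Capitals mark CpG pairs, chosen for display after the sequences were seen.
Slc4a4, upstream start, chr5:88887010-88887309, plus strand: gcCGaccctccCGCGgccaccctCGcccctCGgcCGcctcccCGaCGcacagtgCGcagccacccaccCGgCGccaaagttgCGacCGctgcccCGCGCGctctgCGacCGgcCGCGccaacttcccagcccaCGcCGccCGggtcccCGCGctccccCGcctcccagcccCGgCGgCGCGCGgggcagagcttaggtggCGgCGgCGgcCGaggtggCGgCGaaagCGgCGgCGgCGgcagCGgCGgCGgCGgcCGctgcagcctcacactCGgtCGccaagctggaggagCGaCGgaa
Slc4a4, downstream start, chr5:89027716-89028015, plus strand: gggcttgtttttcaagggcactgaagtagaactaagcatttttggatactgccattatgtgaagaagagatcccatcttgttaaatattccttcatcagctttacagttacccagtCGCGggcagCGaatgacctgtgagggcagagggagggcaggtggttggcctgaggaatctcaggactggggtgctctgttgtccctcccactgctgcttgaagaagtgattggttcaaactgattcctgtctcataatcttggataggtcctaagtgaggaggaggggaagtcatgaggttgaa
Car4, chr11:84957504-84957803, plus strand: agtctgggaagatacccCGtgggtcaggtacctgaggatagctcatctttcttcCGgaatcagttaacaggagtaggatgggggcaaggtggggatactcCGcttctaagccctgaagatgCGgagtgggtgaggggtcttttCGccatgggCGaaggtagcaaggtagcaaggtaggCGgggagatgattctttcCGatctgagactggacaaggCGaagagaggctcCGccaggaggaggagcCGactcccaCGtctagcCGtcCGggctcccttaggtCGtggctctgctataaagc
Car12, chr9:66713436-66713735, plus strand: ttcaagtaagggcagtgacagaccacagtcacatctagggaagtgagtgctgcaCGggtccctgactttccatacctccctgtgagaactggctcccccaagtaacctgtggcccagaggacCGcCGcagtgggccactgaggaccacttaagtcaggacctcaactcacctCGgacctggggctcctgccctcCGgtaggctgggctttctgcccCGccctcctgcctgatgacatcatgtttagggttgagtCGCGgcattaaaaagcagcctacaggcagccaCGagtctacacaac
The upstream Slc4a4 window held 50 CpG pairs, more than 99.1% of the 32851 windows in the table, and the downstream window held 3, against a median of 7 over the table. The Car4 and Car12 windows held 15 and 9. The Slc4a4 starts lie 140.7 kb apart, and the kidney form of the cotransporter is known to be made from an internal promoter. The deposited tables give 1 value and list 1 start site for the Slc4a4 locus in each library, so its level is not split by start. Over 9 windows of 7 of the 8 genes (none for Car2), 4 motifs known from HNF4 sites (CAAAGTCCA, CAAAGTTCA and CAAAGGTCA) and HNF1 sites (GTTAATNAT) were found in 0 windows on either strand, and in 0.475%, 0.39%, 0.478% and 0.801% of all windows. TATAAA was found in 1 of the 9, the Car4 window, 43 bases into the transcript on the gene's strand, and in 13.6% of all windows. The HNF4 cores share their first letters and were counted separately. The HNF4 and HNF1 motifs are rare over all windows, so 0 of 9 windows is a likely count for any genes. These counts describe exact matches in the windows and say nothing of looser matches or of binding elsewhere.

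Of the carriers, Slc4a4, the sodium bicarbonate cotransporter of the basolateral membrane, was at 11.2 and 11.4 FPKM in mutant libraries, against 26.0 and 16.5 FPKM in control libraries. Both mutant values lay below both control values, and the control libraries differed from each other more than the mutant libraries did. In limma the log2 change of -0.82 (SE 0.23) had an unadjusted p of 0.020 and an adjusted p of 0.51. Without control replicate 1 the change was -0.51 and without control replicate 2 it was -1.13, with adjusted p-values of 0.45 and 0.15. Within replicate number 1, which also separates the library kinds by sex-linked transcripts, the difference was -1.14 on the log2 scale and within number 2 it was -0.50. The Slc4a4 locus ran from 89316285 to 89668681 of mm9 chromosome 5 in all 4 libraries and overlapped no other locus.

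Slc4a2 (AE2), which exchanges chloride for bicarbonate at the basolateral membrane of many epithelia, was at 40.4 and 39.2 FPKM in mutant libraries, against 44.7 and 36.3 FPKM in control libraries. The mutant values lay between the control values. The difference, -0.02 on the log2 scale (SE 0.12), had an adjusted p of 0.98 in limma and was 0.13 without control replicate 1. Its locus on mm9 chromosome 5 began at 23929668 and 23929707 in mutant libraries and at 23931050 in both control libraries, and ended at 23946801 in mutant replicate 1 and 23946765 in the other 3 libraries.

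Slc9a3, the proton secretor of the proximal brush border, was at 8.38 and 15.3 FPKM in mutant libraries, against 8.09 and 7.84 FPKM in control libraries. Mutant replicate 2 stood apart, and its deposited interval, 13.6 to 17.0 FPKM, met none of the other 3, which ran from 6.16 to 9.63 FPKM. Mutant replicate 1 lay just above the controls, well inside their intervals. Mutant kidneys differed by 0.47 on the log2 scale (SE 0.29; limma adjusted p 0.76), and by 0.07 without mutant replicate 2 and by 0.87 without mutant replicate 1. Within replicate number 1 the difference was 0.05 and within number 2 it was 0.89 on the log2 scale. The locus began between 74258738 and 74258963 and ended between 74303512 and 74306949 of mm9 chromosome 13 in the separate assemblies, and unnamed assembled loci lay inside it in every library.

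Slc9a8 (NHE8) is an exchanger of the Golgi and, in the immature proximal tubule, of the brush border, where it is known to be prominent before Slc9a3. It was at 20.5 and 9.07 FPKM in mutant libraries, against 10.2 and 9.83 FPKM in control libraries. Mutant replicate 1 was high and mutant replicate 2 was the lowest of the 4, so the groups overlapped. The log2 difference of 0.42 (SE 0.38) had a limma adjusted p of 0.79, and it was -0.13 without mutant replicate 1 and 0.97 without mutant replicate 2. Within replicate number 1 the difference was 0.94 and within number 2 it was -0.11. The interval deposited with the high value, 14.7 to 23.1 FPKM, lay above those of the other libraries, which reached at most 12.2 FPKM. The locus, 167247221 to 167302498 of mm9 chromosome 2, was the same in all 4 libraries and overlapped no other. The high values of Slc9a3 and Slc9a8 were in different mutant libraries.

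Among the carbonic anhydrases, Car4 is anchored to the outer face of the membrane by a lipid and serves bicarbonate uptake in the proximal lumen. It was at 33.7 and 34.0 FPKM in mutant libraries, against 43.4 and 46.1 FPKM in control libraries. Values within a group lay close together, and the groups did not overlap. The log2 change was -0.39 (SE 0.08), with an unadjusted p of 0.0052 and an adjusted p of 0.28 in limma. Within replicate number 1 the difference was -0.36 and within number 2 it was -0.43. For Car4 the deposited FPKM lay above its own interval in mutant replicate 2 (26.0 to 33.6) and in control replicate 2 (35.5 to 45.1), the 2 such cases among the 28 library values of the 7 tested genes. The locus, 84771256 to 84779556 of mm9 chromosome 11, was the same in all libraries. Car4 is also known from capillary endothelium. Endothelial markers summed to 324 and 331 FPKM in mutant libraries, against 328 and 328 FPKM in control libraries. The part of endothelial cells in the Car4 level was not tested.

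Car12, a transmembrane enzyme with its active site outside the cell, was at 30.9 and 26.2 FPKM in mutant libraries, against 42.8 and 40.4 FPKM in control libraries. The groups did not overlap, and the deposited intervals of the mutant libraries (at most 33.3) lay below those of the control libraries (at least 37.5). The log2 change was -0.53 (SE 0.11), with an unadjusted p of 0.0064 and an adjusted p of 0.31 in limma, and within replicate numbers 1 and 2 the differences were -0.46 and -0.60. Its locus on mm9 chromosome 9 ended at 66614652 in all libraries and began at 66561493 and 66561478 in mutant libraries and at 66556157 and 66561493 in control libraries.

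Car2, the abundant cytosolic enzyme of proximal tubule, intercalated cells and red blood cells, was at 88.2 and 83.6 FPKM in mutant libraries, against 73.4 and 78.2 FPKM in control libraries. Both mutant values were the higher, but the interval deposited with mutant replicate 1 ran from 70.9 to 202 FPKM and covered the controls. The log2 change was 0.18 (SE 0.07), with an unadjusted p of 0.070 and an adjusted p of 0.74 in limma, and within replicate numbers 1 and 2 the differences were 0.26 and 0.09. Intercalated cell markers summed to 86.4 and 90.7 FPKM in mutant libraries, against 81.8 and 87.2 FPKM in control libraries, and erythroid markers summed to 33.9 and 39.5 FPKM in mutant libraries, against 25.6 and 33.6 FPKM in control libraries. Alas2 held 26.5 and 27.6 FPKM of the erythroid sum in mutant libraries, against 16.9 and 20.2 FPKM in control libraries. Of 5 tested erythroid markers, 4 had positive changes. The other, Hbb-y, was at 0.663 and 1.72 FPKM in mutant libraries, against 3.96 and 4.55 FPKM in control libraries. The Car2 locus on mm9 chromosome 3 began between 14886275 and 14886426 and ended between 14900770 and 14900791. The part of these cells in the Car2 level was not tested. The red cell enzyme Car1 was at 0.140 and 0.120 FPKM in mutant libraries and listed at 0 in both control libraries. These values lie far under the filter of 1 FPKM, so Car1 was not tested and its difference is not read.

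Car14, a transmembrane carbonic anhydrase known from the rodent proximal tubule and thin descending limb, was listed at 0 FPKM in both mutant and both control libraries. The upper bounds deposited with these zeros were 0.251 and 0.959 FPKM in mutant libraries and 0 and 1.37 FPKM in control libraries. Its locus, 95701723 to 95708562 of mm9 chromosome 3, overlapped that of Aph1a, a gamma-secretase subunit listed at 57.6 and 56.3 FPKM in mutant libraries and at 55.9 and 59.6 FPKM in control libraries. By the loci of control replicate 1, 4285 genes overlapped another named gene, and 30.3% of them were listed at 0 in all 4 libraries. Of 18377 genes with no such overlap, 22.9% were listed at 0 in all 4. Whether the overlap bears on the zeros of Car14 was not tested. A listed 0 can be a failed estimate, so no fold is given for Car14 and its zeros were not read as absence of the transcript.

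In order of mean level, the mutant kidneys had Car2 (85.9 ± 3.29 FPKM, SD, n = 2 as for all these means) above Slc4a2 (39.8 ± 0.885), Car4 (33.9 ± 0.253), Car12 (28.5 ± 3.27), Slc9a8 (14.8 ± 8.07), Slc9a3 (11.9 ± 4.91) and Slc4a4 (11.3 ± 0.0962). In control kidneys the order was Car2 (75.8 ± 3.41 FPKM), Car4 (44.8 ± 1.87), Car12 (41.6 ± 1.73), Slc4a2 (40.5 ± 5.90), Slc4a4 (21.3 ± 6.69), Slc9a8 (10.004 ± 0.241) and Slc9a3 (7.96 ± 0.178). Among neighbours, Slc9a8, Slc9a3 and Slc4a4 overlapped in mutant libraries, and Car12 and Slc4a2 overlapped in control libraries. Slc4a4 was above both sodium-proton exchangers in each control library. In mutant replicate 1 Slc4a4 was at 11.2 FPKM, below Slc9a8 (20.5) and above Slc9a3 (8.38). In mutant replicate 2 it was at 11.4 FPKM, below Slc9a3 (15.3) and above Slc9a8 (9.07). FPKM is per length, so levels of different genes can be set side by side, though each still rests on the assembled gene model.

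**Figure D2:**
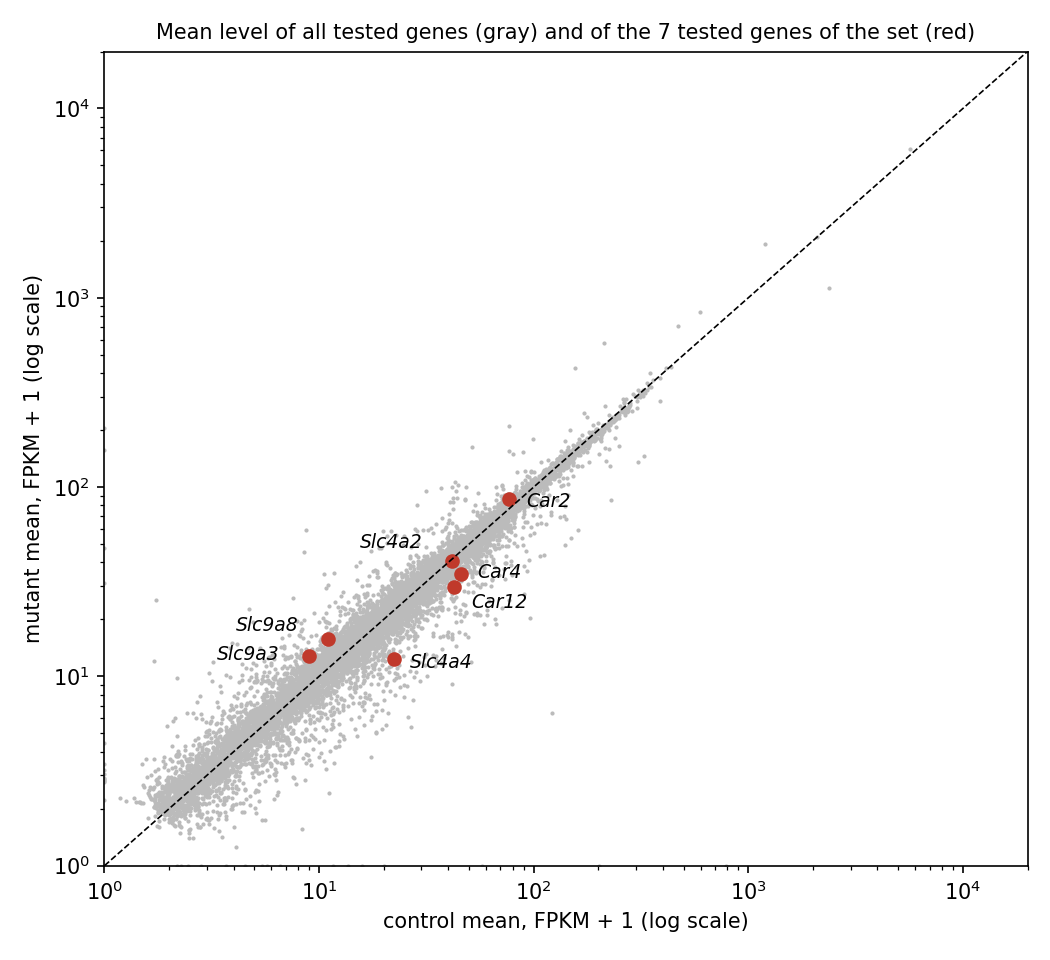
Mean FPKM + 1 in mutant libraries (vertical axis, log scale) against the mean in control libraries (horizontal axis, log scale) for the 13287 tested genes, with the 7 tested genes of the set in red. The dashed line marks equal means, and genes listed at 0 in a group lie on an axis. Slc4a4, Car12 and Car4 lie below the line, and Slc9a3 and Slc9a8 above it.

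Slc9a3, Slc4a4 and Car4 are among the genes of the set that work in the proximal tubule, while Slc4a2 and Car2 are also known from other cells. Markers of the proximal tubule were lower in mutant libraries. The 10 markers of this segment summed to 210 and 214 FPKM in mutant libraries, against 556 and 450 FPKM in control libraries, so the mutant mean was 42.1% of the control mean. Each of the 10 was lower on average, and the median log2 change was -1.28. Over all genes tested, 5944 of 13287 had negative changes. At an unadjusted p under 0.05, 9 of the 10 were lower, against 4.57% of all tested genes. The adjusted threshold was passed by 1, Vil1, against 0.158% of all tested genes. Vil1 did not pass with any 1 library left out. In limma it also failed with the replicate block (adjusted p 0.11), without the filter (0.066) or without the variance trend (0.057). Vil1, which bundles actin in microvilli, was at 6.93 and 6.05 FPKM in mutant libraries, against 26.9 and 25.9 FPKM in control libraries, and its locus overlaps that of Usp37. The part of the proximal markers in the lower Slc4a4, Car4 and Car12 values was not tested.

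Set against that marker sum, which holds none of the 8 genes, the 3 genes gave higher ratios in both mutant libraries. Slc4a4 equalled 5.36% and 5.32% of the sum of proximal markers in mutant libraries, against 4.67% and 3.67% in control libraries. Car4 equalled 16.1% and 15.9% in mutant libraries, against 7.81% and 10.2% in control libraries. Car12 equalled 14.7% and 12.3% in mutant libraries, against 7.71% and 8.97% in control libraries. Control replicate 1 was above control replicate 2 in the marker sum, Slc4a4 and Car12, and below it in Car4. The ratios of the other 4 tested genes of the set were higher in both mutant libraries too, as 19.3% and 18.3% for Slc4a2, against 8.03% and 8.06% in control libraries. These ratios follow the lower marker sum and were not tested.

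**Figure D3:**
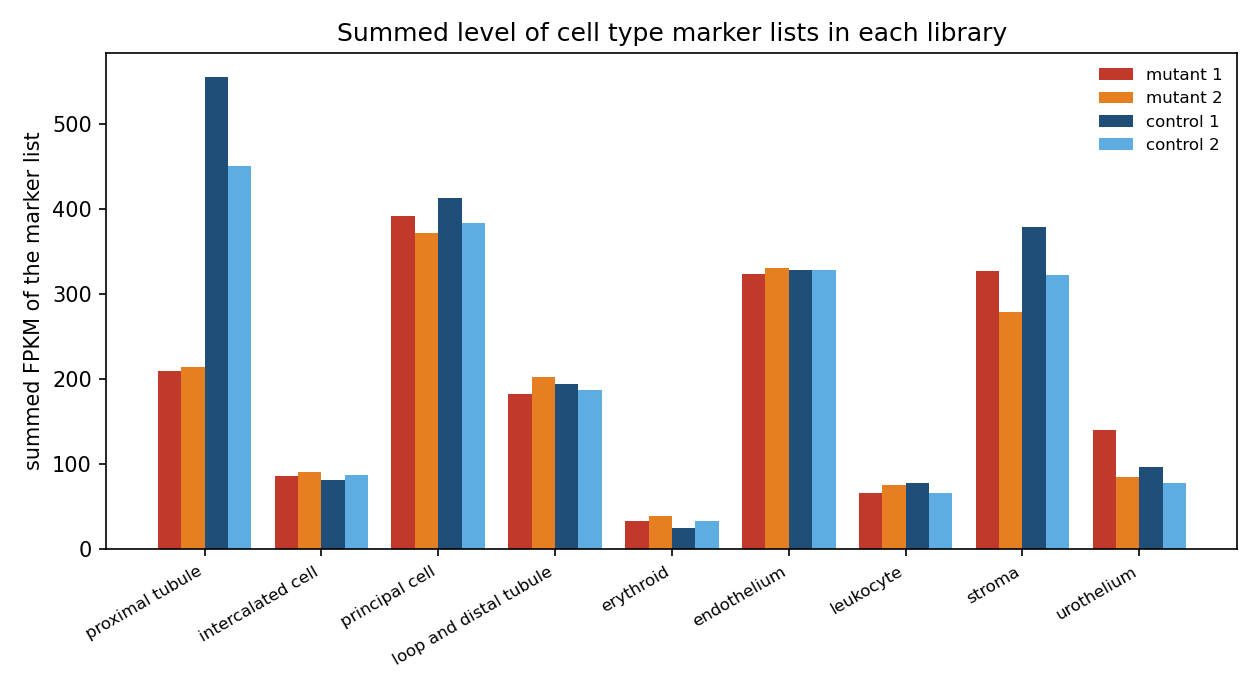
Summed FPKM (vertical axis, linear from 0) of 9 cell type marker lists in mutant libraries 1 and 2 and control libraries 1 and 2 (bars). The proximal tubule list is at 210 and 214 FPKM in mutant libraries, against 556 and 450 in control libraries, and no other list shows a gap of that size between groups.

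Markers of the other cells gave smaller differences. In the intercalated cell, principal cell, loop and distal tubule, erythroid, endothelium, leukocyte, stroma and urothelium lists, 0 markers passed the adjusted threshold in limma. At an unadjusted p under 0.05, 2 of 5 tested loop and distal tubule markers were higher, and of 5 tested erythroid markers 1 was lower and 1 higher. Over all genes tested, 4.57% were lower and 2.67% higher at that p. The list medians ran from -0.16 (stroma) to 0.39 (erythroid) on the log2 scale, against 0.02 over all genes tested. Principal cell markers summed to 392.1 and 372 FPKM in mutant libraries, against 414 and 383 FPKM in control libraries, and stroma markers to 328 and 279 FPKM in mutant libraries, against 379 and 322 FPKM in control libraries. Loop and distal tubule markers summed to 183 and 202 FPKM in mutant libraries, against 195 and 187 FPKM in control libraries, and leukocyte markers to 66.5 and 76.2 FPKM in mutant libraries, against 77.6 and 65.8 FPKM in control libraries. The loop and leukocyte groups overlapped, as did the stroma groups, and the principal cell groups overlapped too. Urothelium markers summed to 140 and 85.4 FPKM in mutant libraries, against 96.3 and 78.0 FPKM in control libraries, with mutant replicate 1, in which Slc9a8 was high, the highest. Whether that difference bears on Slc9a8 was not tested. No marker in these lists that was in all 4 tables was listed at 0 in all 4 libraries.

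Related genes from lists of acid-base transport were read in the same fit. Over all genes tested, 4.57% were lower and 2.67% higher at an unadjusted p under 0.05, and 5944 of 13287 had negative changes. In the rest of the Slc9 family with its scaffolds, 9 of 11 genes in all 4 tables were tested, 0 passed the adjusted threshold, 1 was lower at an unadjusted p under 0.05, 2 had negative and 7 positive changes, and the median was 0.21 on the log2 scale. Slc9a3r1 (NHERF1), the scaffold that ties Slc9a3 to ezrin and the brush border and no exchanger itself, was at 54.4 and 55.0 FPKM in mutant libraries, against 83.4 and 78.9 FPKM in control libraries. This was a log2 change of -0.56 (SE 0.07; limma adjusted p 0.13). Its relative Slc9a3r2 was at 83.4 and 78.8 FPKM in mutant libraries, against 78.2 and 77.3 FPKM in control libraries. The endosomal exchanger Slc9a9 was at 3.24 and 3.15 FPKM in mutant libraries, against 2.104 and 2.28 FPKM in control libraries, a log2 change of 0.40 (SE 0.16). The other tested exchangers had changes between -0.06 (Slc9b2) and 0.26 (Slc9a4). Slc9a2 (NHE2), an exchanger of distal segments, was at 9.28 and 9.79 FPKM in mutant libraries, against 8.88 and 7.15 FPKM in control libraries. Slc9a7 and Slc9a5 had changes of 0.21 and 0.25. With 1 library left out, Slc9a7 ran from 0.08 to 0.34, and Slc9a5 and Slc9b2 changed sign.

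Of the other Slc4 genes, 8 of 9 were tested and 0 passed the adjusted threshold or an unadjusted p under 0.05, with 3 negative and 5 positive changes and a median of 0.10. The largest change was that of Slc4a9 (AE4), an anion exchanger of intercalated cells, at 32.9 and 14.8 FPKM in mutant libraries, against 12.6 and 12.5 FPKM in control libraries. Both mutant values lay above the controls, with mutant replicate 1 far above, and the adjusted p was 0.76 in limma. Slc4a8, a sodium-driven exchanger also known from intercalated cells, was at 2.39 and 2.64 FPKM in mutant libraries, against 2.94 and 6.21 FPKM in control libraries, so the gap came mainly from control replicate 2. Slc4a1 (AE1), of red cells and acid-secreting intercalated cells, was at 4.03 and 5.69 FPKM in mutant libraries, against 2.84 and 5.39 FPKM in control libraries, with overlap. Slc4a1ap, which encodes a protein that binds AE1 and is no carrier, had the highest mean of the list in control kidneys, at 20.6 and 23.3 FPKM in mutant libraries, against 19.6 and 21.7 FPKM in control libraries. The others had changes of 0.31 (Slc4a7), 0.12 (Slc4a3), -0.11 (Slc4a11) and -0.12 (Slc4a5). With 1 library left out, Slc4a7 ran from 0.14 to 0.48, Slc4a3 from 0.06 to 0.19 and Slc4a11 from -0.20 to -0.03, and Slc4a5 changed sign.

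Of the other 12 carbonic anhydrase genes, 8 were tested and 0 passed the adjusted threshold or an unadjusted p under 0.05, with 3 negative and 5 positive changes and a median of 0.15. The lipid-anchored Car15, like Car4 an enzyme of the outer membrane face in rodents, was at 24.6 and 20.4 FPKM in mutant libraries, against 23.3 and 24.3 FPKM in control libraries. These values overlapped, unlike those of Car4. Car11, an acatalytic relative, was at 11.2 and 12.7 FPKM in mutant libraries, against 9.27 and 10.5 FPKM in control libraries. Car3, the enzyme of muscle and fat, was at 4.23 and 1.51 FPKM in mutant libraries, against 1.54 and 0.808 FPKM in control libraries, and it was high in mutant replicate 1. Car9, a hypoxia-induced membrane enzyme whose locus overlaps Tpm2, was at 1.63 FPKM and listed at 0 in mutant libraries, against 1.80 and 1.82 FPKM in control libraries. The mitochondrial Car5b had a change of -0.28, the acatalytic Car8 of 0.44, and the cytosolic Car13 and Car7 of 0.20 and 0.10. With 1 library left out, Car5b ran from -0.49 to -0.07 and Car8 from 0.31 to 0.56, and Car13 and Car7 changed sign. None of these genes was at the level of Car2, Car4 or Car12.

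**Figure D4:**
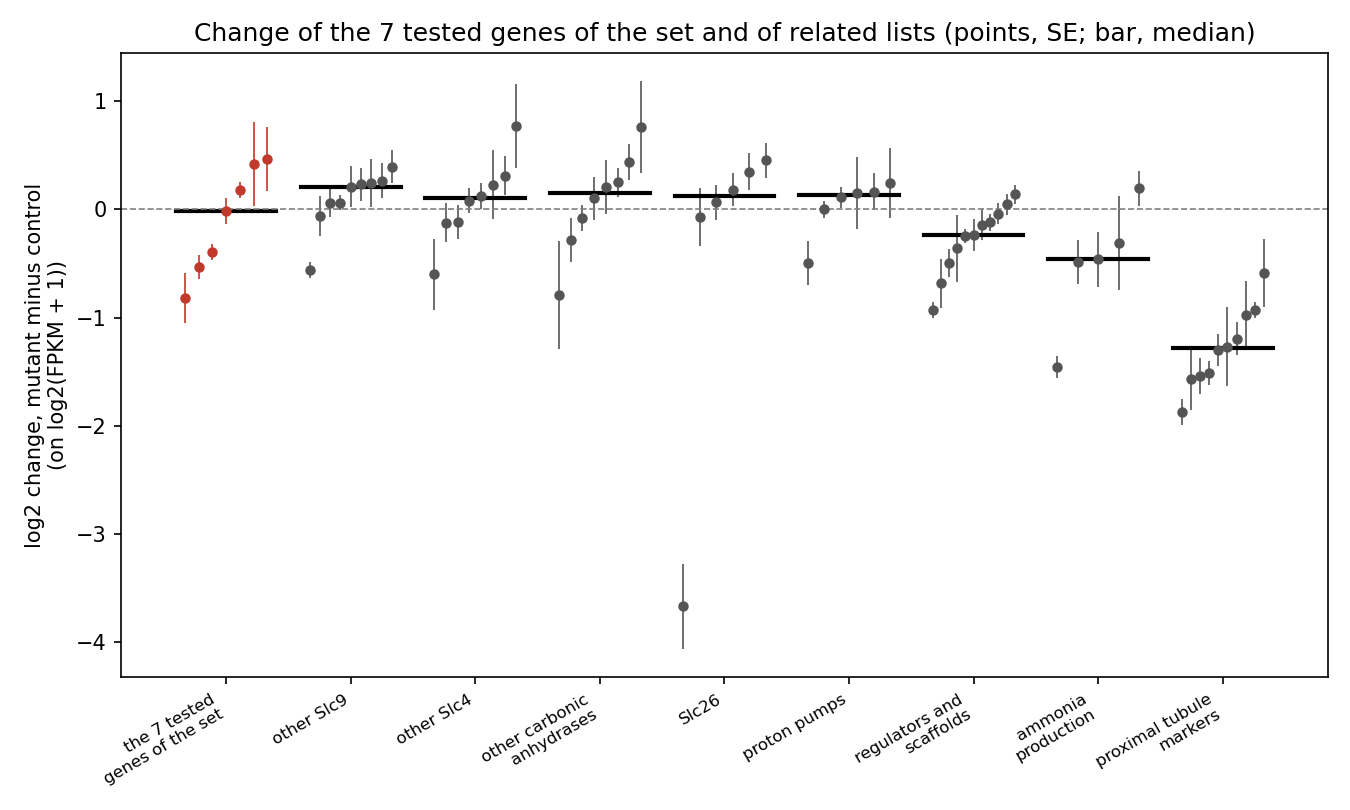
Log2 change, mutant minus control, on log2(FPKM + 1) (vertical axis) with its SE for the 7 tested genes of the set (red) and the tested genes of related lists and of proximal tubule markers (gray). Horizontal bars are list medians, which run from -1.28 for proximal tubule markers to 0.21 for the other Slc9 genes. The lowest gray point is Slc26a1, listed at 0 in both mutant libraries. Its point is a fitted value and no bound, and its SE is not read.

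Anion exchangers of the Slc26 family, proton pumps and regulators completed the survey. In the Slc26 list 6 of 8 genes were tested and 0 passed the adjusted threshold. At an unadjusted p under 0.05, 1 was higher (background 2.67% of tested genes) and 1 was lower (background 4.57%). The lower one is Slc26a1, whose p is not read. The list median, 0.12, includes its fitted value. Slc26a1, a sulfate and bicarbonate exchanger of the proximal basolateral membrane, was listed at 0 in both mutant libraries, against 17.4 and 7.77 FPKM in control libraries. Its locus overlaps Idua. It passed the filter only through the control libraries, so it had to be lower in mutant libraries, and no test is given for it. Slc26a7, of acid-secreting cells, was at 8.77 and 7.21 FPKM in mutant libraries, against 5.82 and 5.28 FPKM in control libraries, and the widely expressed Slc26a2 had a change of 0.07. Of proton pump genes 6 of 8 were tested and 0 passed either threshold, with a median of 0.13. Atp6v1b1, the pump subunit of intercalated cells, was at 40.7 and 40.4 FPKM in mutant libraries, against 42.0 and 39.1 FPKM in control libraries. The gastric-type pump Atp4a was at 1.32 and 1.51 FPKM in mutant libraries, against 2.88 and 1.99 FPKM in control libraries, and Atp12a, its colonic relative, and Atp6ap2 had changes of 0.24 and 0.11. With 1 library left out, Atp6ap2 ran from 0.0033 to 0.22, and Atp12a changed sign.

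Of the regulators and scaffolds, 11 of 13 were tested and 0 passed the adjusted threshold, while 9 had negative changes, 4 of them at an unadjusted p under 0.05, and the median was -0.24. Over all genes tested, 5944 of 13287 had negative changes and 4.57% were lower at that p. Pdzk1, a scaffold of the brush border, was at 68.6 and 68.4 FPKM in mutant libraries, against 137 and 126 FPKM in control libraries, a log2 change of -0.93 (SE 0.07) with an adjusted p of 0.057 in limma. It is also one of the proximal tubule markers, and its locus overlaps Gpr89. Ezrin (Ezr), which links membrane proteins to actin, was at 92.8 and 91.3 FPKM in mutant libraries, against 108 and 110 FPKM in control libraries. Ptk2b, a kinase that responds to acid in proximal cells, was at 4.13 and 2.92 FPKM in mutant libraries, against 7.17 and 5.36 FPKM in control libraries. Among 5 tested genes of proximal ammonia production, which makes new bicarbonate from glutamine, 4 had negative changes, 0 passed the adjusted threshold, 1 was lower at an unadjusted p under 0.05, and the median was -0.46. Pck1, the gluconeogenic enzyme that consumes the carbon skeleton of glutamine, was at 11.1 and 12.6 FPKM in mutant libraries, against 33.7 and 34.6 FPKM in control libraries, a log2 change of -1.46 (SE 0.10) with an adjusted p of 0.0504 in limma. The amino acid carrier Slc38a3, which brings glutamine into the cell, was at 11.2 and 9.34 FPKM in mutant libraries, against 12.5 and 17.4 FPKM in control libraries.

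The genes whose 4 library values were most like those of Slc4a4 were sought among 11003 tested genes with a mean of at least 5 FPKM, by Euclidean distance between deviations from the control mean on log2(FPKM + 1). The 5 nearest were Mfsd7c, Chdh, Ttyh2, Cyb5d2 and Dab2, at distances of 0.17 to 0.21. The nearest, Mfsd7c, was at 5.91 and 5.54 FPKM in mutant libraries, against 14.6 and 7.73 FPKM in control libraries. Dab2, an adaptor of megalin endocytosis and rank 5 of these, was at 32.5 and 30.5 FPKM in mutant libraries, against 80.6 and 44.8 FPKM in control libraries. Control replicate 1 was the highest for Dab2 as for Slc4a4, a likeness that the search itself selects for. For Car12 the 5 nearest were Pdxk, Irak2, Sult1c2, Ggt1 and Me1, at distances of 0.06 to 0.10. The nearest, Pdxk, was at 20.5 and 17.9 FPKM in mutant libraries, against 28.1 and 28.0 FPKM in control libraries. Ggt1, a brush border enzyme of glutathione breakdown and rank 4 of these, was at 89.8 and 79.7 FPKM in mutant libraries, against 132 and 123 FPKM in control libraries. Dab2 and Ggt1 are described for their known roles, not their rank. With 4 libraries, such likeness is a description.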

How the data were processed

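RNA from whole embryonic kidneys was poly(A) selected and prepared with the ThruPLEX DNA-seq kit, per the labels' protocols, which mention no strand. The authors computed the deposited FPKM values and their interval bounds, with 1 library per table. The submitters' processing notes name Cufflinks 2.1.1, SAMtools 0.1.19, Bowtie 1.0.0, TopHat2 2.0.11 and mm9, and the sources used here give neither the annotation nor the level of the intervals. Loci were assembled in each library, per the file headers and IDs, so a gene's bounds and FPKM can move with the assembly.

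Tables were joined by symbol, with FPKM summed over loci that share one. Of 23852 names, 22761 were in all 4 tables, and 99 of these with a locus not marked OK were left out. The filter asked for 1 FPKM in any 2 libraries. The test was limma 3.58.1 (R 4.3.3) on log2(FPKM + 1), which understates the change of low genes, with a trended eBayes, group alone in the model, Benjamini-Hochberg adjustment and a threshold of 0.05. No count test was run. Absolute depth is unknown. Among genes under 0.1 FPKM, the most frequent log2 ratio was 0.21 for mutant replicate 1 over mutant replicate 2, and 0.01 to 0.03 among the other 3 libraries, as if mutant replicate 2 held the most mapped fragments.

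The genes and lists were chosen with earlier results of these data known. Named genes were the 8 genes, Hnf4a, each other carbonic anhydrase, Slc4 and Slc9 gene past the filter, from each list those past the threshold, the 2 largest changes and the 2 highest levels, and the 5 nearest patterns for each of the 2 genes of the set with the largest change. Markers are otherwise given as list sums, except Vil1, Alas2, Hbb-y and those that also stand in an acid-base list (Pdzk1, Atp6v1b1, Slc4a1, Car1). A few genes under this rule are not reported here, and list counts include them. Car1, Alas2, Hbb-y, Aph1a, Ddx3y, Xist and the ratio to the marker sum were chosen after values were seen. The 12 alternatives changed the pseudocount, filter, scaling, variance model, symbols with several loci, replicate block and each library left out. The fit was tested on simulated data.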

Additional observations from a re-analysis of the deposited data

Results flagged for a closer look

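Unnamed loci assembled inside the Slc9a3 locus, which enter no comparison, had higher single values in mutant than in control libraries. They were not the same segment in each library. They were listed at 7.50 FPKM in mutant replicate 1 and 12.7 FPKM in mutant replicate 2, against 2.96 FPKM in control replicate 1 and 3.19 and 3.86 FPKM for a pair of loci in control replicate 2. The loci were 426 and 296 bases long in mutant libraries, against 711, 835 and 657 bases in control libraries, and all lay between 74268048 and 74270045 of mm9 chromosome 13. The locus of mutant replicate 2 began at 74269750, beyond the ends of both control replicate 2 loci (74268882 and 74269646). The value in mutant replicate 2, the library in which Slc9a3 was also highest, lay above its own deposited interval of 1.99 to 9.53 FPKM. The interval in mutant replicate 1, 1.92 to 8.63 FPKM, covered the control values. The 2 shortest loci carried the highest values, and the part of assembled length in this difference was not tested.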

How the results depend on the processing

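None of the 7 tested genes of the set passed the adjusted threshold under any of the 12 alternatives; the lowest adjusted p was 0.15 (Slc4a4 without control replicate 2). Slc4a4, Car4 and Car12 stayed negative and Slc9a3 and Car2 positive under all 12. With each library left out in turn, the log2 change ran from -0.16 to 0.13 for Slc4a2 and from -0.13 to 0.97 for Slc9a8, the genes of the set that changed sign. The cause was not tested, beyond the single library left out. The count of genes past the threshold, 21, was 10 with no filter, 11 with no mean-variance trend and 6 with the replicate block, and 0 to 14 with 1 library left out: 0 without control replicate 1 (739 lower and 290 higher at an unadjusted p under 0.05), 0 without control replicate 2 (1124 lower and 1169 higher) and 12 without mutant replicate 1. Same-numbered libraries share a number and a sex-linked pattern, not a stated animal, and their deviations correlated at 0.15 across genes; the block changed no call of the 7 genes. Vil1 did not pass without the filter (adjusted p = 0.066), without the trend (0.057), with the block (0.11) or with any 1 library left out (0.11 to 0.20). Pck1 passed with a pseudocount of 0.1, with the filter in all 4 libraries, with either scaling and with the highest row per symbol (0.040 to 0.050). Slc26a1, listed at 0 in both mutant libraries, entered the test only through control libraries, so its fitted change moves with the pseudocount and its p is not read. Other named genes that changed sign with a library left out had these ranges of log2 change: Atp12a (-0.20 to 0.68), Atp6v1b1 (-0.049 to 0.050), Car13 (-0.087 to 0.49), Car15 (-0.21 to 0.047), Car7 (-0.080 to 0.28), Hnf4a (-0.14 to 0.0025), Slc26a2 (-0.090 to 0.22), Slc4a1 (-0.14 to 0.60), Slc4a1ap (-0.0031 to 0.17), Slc4a5 (-0.28 to 0.031), Slc9a5 (-0.019 to 0.51), Slc9b2 (-0.19 to 0.068). Atp6v1b1 also changed sign with size factors (-0.021). Where 1 library stood alone in a group, it was assumed to vary like the other group.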
